A study of Mus musculus with 4 samples.

Results

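The enzymes that hydroxylate and crosslink collagen were followed in cells of the mouse carotid artery before and after wire injury. The set held 10 genes chosen by name, Lox, Loxl1, Loxl2, Loxl3, Plod1, Plod2, Plod3, P4ha1, P4ha2 and P4ha3, of 31053 genes listed in each library, and all 10 were detected. Carotid arteries came from C57BL/6 mice, which were male and 11 weeks old at injury per the study's methods. A wire was used to injure the carotid, and cells came from the uninjured vessel (day 0) or from vessels at 3, 7 or 14 days. Arteries of several mice were pooled at each time point and vessels with a thrombus were left out, so that each of the 4 time points was 1 single-cell library. There were therefore no replicates and no tests, every interval below is a 95% exact interval that covers counting error only, and a difference between days cannot be told apart from a difference between libraries.

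Collagen chains are modified inside the endoplasmic reticulum before they fold into a triple helix. Prolyl 4-hydroxylases, built from a catalytic alpha subunit (P4ha1, P4ha2 or P4ha3) and protein disulfide isomerase, make the hydroxyproline that keeps the helix stable at body temperature, and lysyl hydroxylases (Plod1, Plod2, Plod3) make the hydroxylysine that carries sugars and forms the strongest crosslinks. Outside the cell, the copper-dependent amine oxidases of the lysyl oxidase family (Lox and its relatives) oxidise lysines of collagen and elastin, and the products join the chains of a fibre to one another, which gives the arterial wall its tensile strength.

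The libraries of days 0, 3, 7 and 14 held 333 to 3001 cell barcodes and 2672722 to 27973418 unique molecular identifiers (UMIs, each a counted transcript). Libraries shared 217 barcodes, and 214 of these had a shallow copy with under 10% of the UMIs of its partner. In the largest group, 104 barcodes of day 3 copied barcodes of day 0 with a median of 4.66% of the UMIs, and 99.6% of the UMIs of a copy lay in genes seen in the deeper barcode. These copies were removed before the cells were clustered, since 92 of those 104 would otherwise have counted as fibroblast-like cells of day 3. With the copies kept, 6, 6 and 3 of the 10 enzymes were at least 2 times their day 0 level on days 3, 7 and 14 in fibroblast-like cells, the same counts as without them. After all filters 5408 cells remained. Cells were named by resemblance to marker genes, and 233, 102, 111 and 490 cells of days 0, 3, 7 and 14 were fibroblast-like and 11, 110, 88 and 77 were smooth muscle-like. All 10 fibroblast markers, among them Pdgfra, Dcn and Lum, were detected in the fibroblast-like cells of every day, at a summed 39486.6, 12792.3, 18319.5 and 29056.7 CPM, where a CPM is the UMIs of a gene divided by all UMIs of the class and scaled to 1000000.

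Most transcripts of the 10 genes came from fibroblast-like and smooth muscle-like cells. Fibroblast-like cells held 56.9% of the Lox UMIs of all classes, 72.1% of those of Loxl1, 65.9% of those of Loxl2, 58.5% of those of Plod2 and 73.8% of those of P4ha3. Smooth muscle-like cells held a further 24.5% of Lox and 22.6% of Plod2 UMIs. Plod1, Plod3 and P4ha1 were spread more widely, and monocyte/macrophage-like cells held 28.2%, 31.7% and 18.4% of their UMIs, against 0.933% of Lox UMIs and 2.02% of P4ha2 UMIs. Levels below are CPM of the UMIs summed over the cells of a class on a day. They are compared between days and classes for 1 gene at a time, because a 3′ count does not rank genes that differ in how well they are captured.

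**Figure D1:**
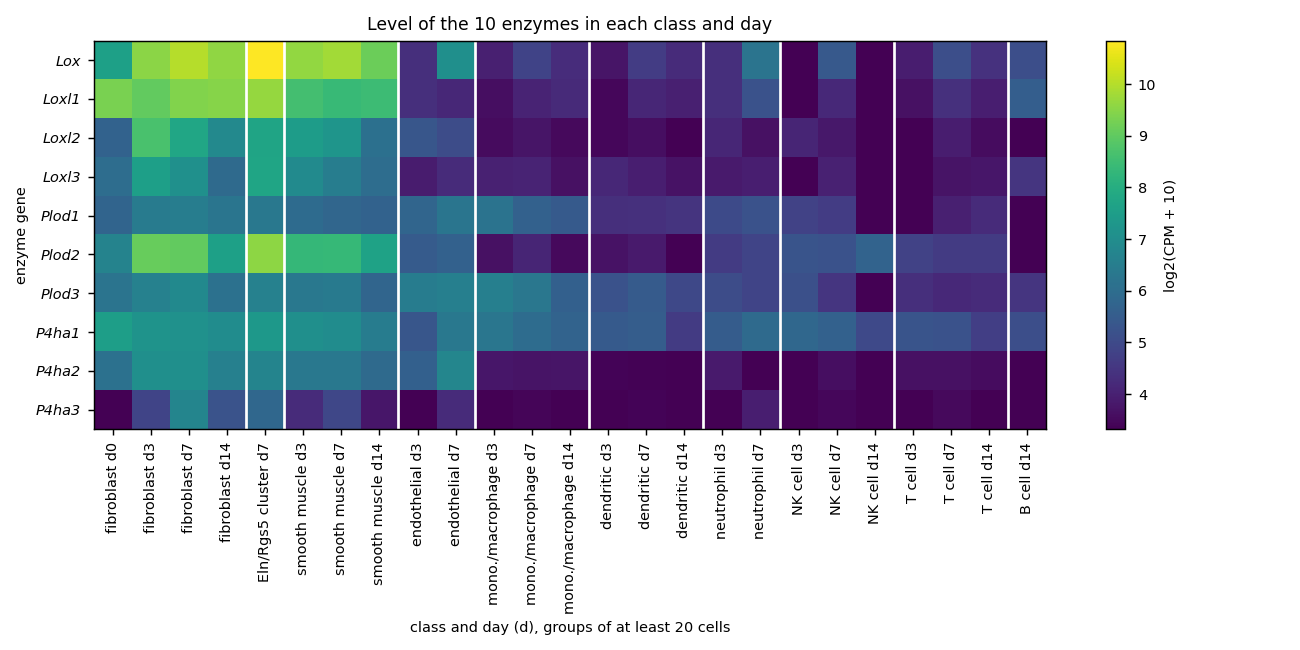
Level of the 10 enzyme genes as log2(CPM + 10), shown by colour, in each class and day with at least 20 cells; rows are genes and columns are classes by day. The lysyl oxidase genes and Plod2 are bright in fibroblast-like and smooth muscle-like cells and in the Eln/Rgs5 cluster, whereas Plod1, Plod3 and P4ha1 also reach 33.4 to 85.5 CPM in monocyte/macrophage-like cells.

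Lox, the enzyme that starts the crosslinking of collagen and elastin, was at 183 CPM in fibroblast-like cells of day 0 (interval 166 to 202), 732 on day 3 (706 to 758), 1016 on day 7 (981 to 1052) and 758 on day 14 (740 to 776). The level was thus low only before injury, and the intervals of the later days did not reach it. Relative to day 0 it was 4.00 times as high on day 3 (3.61 to 4.45), 5.55 times on day 7 (5.01 to 6.17) and 4.14 times on day 14 (3.75 to 4.59). Over the processing settings tried, the log2 ratio ran from 1.84 to 2.06 on day 3, 1.88 to 2.82 on day 7 and 1.95 to 2.15 on day 14. Among all groups of a class and day with at least 20 cells, fibroblast-like cells of day 7 stood second to the Eln/Rgs5 cluster described below, followed by smooth muscle-like cells of day 7, at 886 CPM (849 to 925). Smooth muscle-like cells of day 3, at 772 CPM (744 to 801), could not be separated from fibroblast-like cells of day 14, nor could these from fibroblast-like cells of day 3.

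Loxl1, which is known for its part in the upkeep of elastic fibres, took another course. It was at 633 CPM in fibroblast-like cells on day 0 (601 to 667), 513 on day 3 (492 to 536), 679 on day 7 (650 to 708) and 705 on day 14 (687 to 722). It was already high in the uninjured artery, lowest on day 3, and never as far as 1.5 times from its starting level, although the day 3 low was not seen without the deepest sub-cluster or within sub-cluster N0, both described below. Its day 3 level was 0.811 times that of day 0 (0.758 to 0.868), its day 7 level 1.07 times (1.00 to 1.15) and its day 14 level 1.11 times (1.05 to 1.18).

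Loxl2 and Loxl3, members of the family that carry scavenger receptor cysteine-rich domains, were highest on day 3. Loxl2 was at 41.8 CPM on day 0 (33.7 to 51.2), 402 on day 3 (383 to 422), 208 on day 7 (193 to 225) and 106 on day 14 (99.2 to 113). Its ratio to day 0 of 9.61 on day 3 (7.80 to 12.0) was the highest of the 9 enzymes with UMIs on day 0, and it was still 2.53 on day 14 (2.04 to 3.17). With every cell thinned to 1000 UMIs, the day 3 ratio of Loxl2 went from 3.27 to 4.17 and the day 14 ratio from 1.34 to 2.56 on the log2 scale. Loxl3 was at 53.9 CPM on day 0 (44.7 to 64.5), 178 on day 3 (165 to 191), 128 on day 7 (116 to 141) and 51.0 on day 14 (46.4 to 55.9). It was 3.30 times its day 0 level on day 3 (2.72 to 4.03) and 2.38 times on day 7 (1.93 to 2.94). By day 14 the ratio was 0.946 (0.771 to 1.17), so that no difference from day 0 was detectable at this depth.

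Among the lysyl hydroxylases, Plod2, which acts on the lysines of the collagen telopeptides, differed most between days. It was at 92.6 CPM in fibroblast-like cells on day 0 (80.4 to 106), 535 on day 3 (513 to 558), 514 on day 7 (489 to 540) and 185 on day 14 (176 to 194). The levels of days 3 and 7 lay far above both other days. Plod2 was 5.78 times its day 0 level on day 3 (5.01 to 6.70), 5.55 times on day 7 (4.8 to 6.45) and 2.00 times on day 14 (1.73 to 2.32), where it fell just short of the limit of 2 used below.

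The other lysyl hydroxylases differed less. Plod1, which acts on lysines of the helix, was at 44.0, 76.7, 81.6 and 66.0 CPM on days 0, 3, 7 and 14. Plod3, which can also add glucose to hydroxylysine-linked sugars, was at 64.3, 89.5, 110 and 60.2 CPM. Against day 0, Plod1 stood at 1.74 times on day 3 (1.38 to 2.21), 1.85 times on day 7 (1.46 to 2.36) and 1.5 times on day 14 (1.21 to 1.88). The values for Plod3 were 1.39 (1.15 to 1.70), 1.71 (1.40 to 2.09) and 0.936 (0.777 to 1.13). When every cell was thinned to 1000 UMIs, the Plod1 ratio changed direction on days 3 and 14, to -0.32 and -0.72 on the log2 scale, so the direction of Plod1 was not settled.

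The alpha subunits of prolyl 4-hydroxylase each took a different course. P4ha1 was at 176 CPM in fibroblast-like cells on day 0 (159 to 194), 134 on day 3 (123 to 146), 129 on day 7 (117 to 142) and 117 on day 14 (110 to 124). It was the only one of the 10 genes whose interval for the ratio to day 0 lay below 1 on each of the 3 later days, at 0.763 (0.669 to 0.871), 0.733 (0.636 to 0.845) and 0.666 (0.592 to 0.750). P4ha2 was at 60.2 CPM on day 0 (50.5 to 71.3), 123 on day 3 (113 to 134), 124 on day 7 (112 to 137) and 87.3 on day 14 (81.2 to 93.7). It stood close to a doubling on days 3 and 7, with ratios of 2.04 (1.68 to 2.49) and 2.06 (1.69 to 2.53), and at 1.45 on day 14 (1.21 to 1.75).

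P4ha3 had no UMI among 2225112 UMIs of the 233 fibroblast-like cells of day 0, which allows a level of up to 1.35 CPM (3 UMIs). It was at 18.9 CPM on day 3 (14.9 to 23.6), 97.7 on day 7 (87.0 to 109) and 28.0 on day 14 (24.7 to 31.8), from 78, 304 and 248 UMIs. It was therefore at least 14.0 times higher on day 3, at least 72.5 times on day 7 and at least 20.8 times on day 14, with day 0 taken as 3 UMIs over the class. The 95% counting limits of these ratios, which also take in the error of the later days, reached down to 11.1, 58.6 and 16.8. P4ha3 was the one member that peaked sharply on day 7, at 5.18 times its day 3 level (4.02 to 6.73), and its day 14 level was 0.287 times that of day 7 (0.242 to 0.341).

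The 250 bases before the start of each alpha subunit gene are shown because these genes code for alternative subunits of the same enzyme and differed in course. They come from the RefSeq promoter table of build GRCm38.p6, which held 5 of the 10 enzymes by symbol (Plod1, Plod3, P4ha1, P4ha2 and P4ha3). Capitals mark the letters ACGTG and GCGTG on either strand (reverse complements CACGT and CACGC), the core letters of the element that hypoxia-inducible factors bind, searched because prolyl and lysyl hydroxylase genes are known hypoxia targets. Over all 32851 promoters of the table, 16.6% held ACGTG, 28.2% GCGTG and 38.6% either. These shares are not matched for base content. The bases G and C made up 69.6%, 70% and 67.2% of the windows of P4ha1, P4ha2 and P4ha3, against a median of 52.4% over all promoters. P4ha1 lies at chr10:59323046-59323295 (plus strand) with 1 ACGTG and 2 GCGTG, P4ha2 at chr11:54100674-54100923 (plus strand) with 1 ACGTG and 2 GCGTG, and P4ha3 at chr7:100285270-100285519 (plus strand) with none of these letters in this window.
P4ha1: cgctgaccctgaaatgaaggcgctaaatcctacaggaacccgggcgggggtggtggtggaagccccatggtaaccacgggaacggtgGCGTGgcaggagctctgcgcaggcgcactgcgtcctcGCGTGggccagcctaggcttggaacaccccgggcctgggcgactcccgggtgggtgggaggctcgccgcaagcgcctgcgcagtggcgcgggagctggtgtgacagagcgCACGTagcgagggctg
P4ha2: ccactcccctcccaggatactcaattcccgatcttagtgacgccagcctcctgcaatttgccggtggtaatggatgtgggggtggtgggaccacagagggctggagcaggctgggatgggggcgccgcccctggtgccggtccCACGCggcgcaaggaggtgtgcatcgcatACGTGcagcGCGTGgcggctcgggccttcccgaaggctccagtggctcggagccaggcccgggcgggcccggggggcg
P4ha3: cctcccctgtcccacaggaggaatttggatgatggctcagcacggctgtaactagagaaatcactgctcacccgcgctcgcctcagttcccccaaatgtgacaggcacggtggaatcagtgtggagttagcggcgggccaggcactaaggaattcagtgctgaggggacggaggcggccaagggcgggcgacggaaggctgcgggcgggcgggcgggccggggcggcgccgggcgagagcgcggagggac
P4ha1 and P4ha2 thus held the same number of matches, and the part of these letters in the course of either gene was not tested. Matches of 5 letters are common and say nothing by themselves about the binding of a factor.

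**Figure D2:**
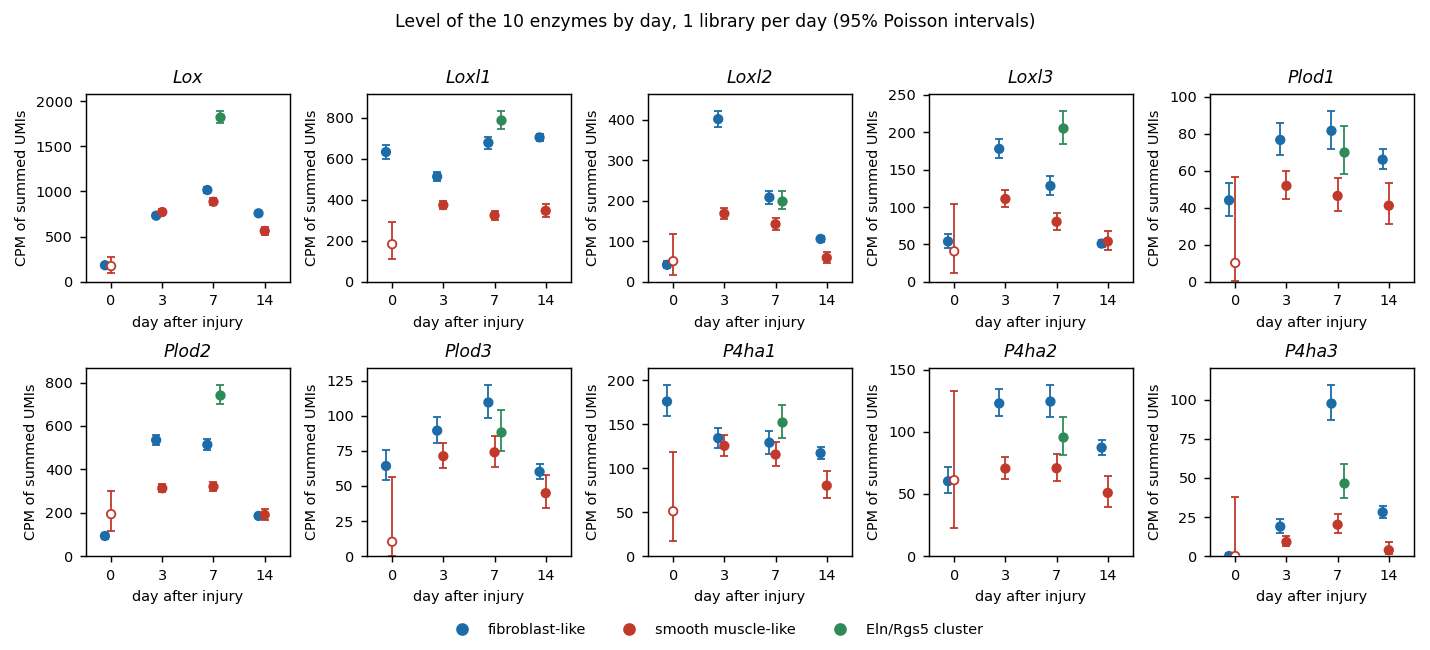
CPM of each enzyme gene (y axis, 1 panel per gene) by day after injury (x axis) in fibroblast-like cells (blue), smooth muscle-like cells (red) and the Eln/Rgs5 cluster (green, day 7 only); points are sums over the cells of 1 library, bars are 95% Poisson intervals, and open points rest on 11 cells. Lox, Loxl2, Loxl3, Plod2 and P4ha3 are above their day 0 level on days 3 and 7 in fibroblast-like cells, and Loxl1 and P4ha1 are already high on day 0.

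Counted together, 6 of the 10 enzymes were at least 2 times their day 0 level in fibroblast-like cells on day 3, where 9.14% of the 10695 genes with at least 20 UMIs over both sums passed the same limit. They were Lox, Loxl2, Loxl3, Plod2, P4ha2 and P4ha3. The same 6 genes passed it on day 7 (9.82% of all genes tested) and 3, Lox, Loxl2 and P4ha3, on day 14 (9.09%). After thinning to 1000 UMIs, the count of day 7 was 3 of the 8 that could be compared, with P4ha2 under the limit at 0.54 on the log2 scale and Loxl2 and P4ha3 left with too few UMIs. No enzyme was at or under 0.5 times its day 0 level on any of these days, against 10.7%, 8.15% and 4.58% of all genes. With thinning, P4ha1 passed this lower limit on day 14, at -1.17 on the log2 scale. The median log2 ratio of the 10 enzymes was 1.38, 1.15 and 0.56 on days 3, 7 and 14, beside -0.10, -0.03 and -0.02 over all genes tested. The enzymes nearest the limit were P4ha2, just above it on days 3 and 7, and Plod2, just under it on day 14.

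From day 3 to day 14 the enzymes parted. Loxl2, Loxl3 and Plod2 were at 0.264 (0.243 to 0.286), 0.287 (0.255 to 0.323) and 0.346 (0.324 to 0.369) times their day 3 level on day 14, and these 3 were the only members at or under 0.5 times (6.03% of all genes), while none was at least 2 times higher (12% of all genes). Lox, at 1.04 times (0.99 to 1.08), was near its day 3 level though under its day 7 level, and Loxl1 stood at 1.37 times (1.31 to 1.44). From day 7 to day 14, Loxl3, Plod2 and P4ha3 were at or under 0.5 times (4.29% of all genes) and no member was at least 2 times higher (6.32%). P4ha3 alone was at least 2 times higher on day 7 than on day 3 (6.03%), and no member was at or under 0.5 times (3.07%).

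**Figure D3:**
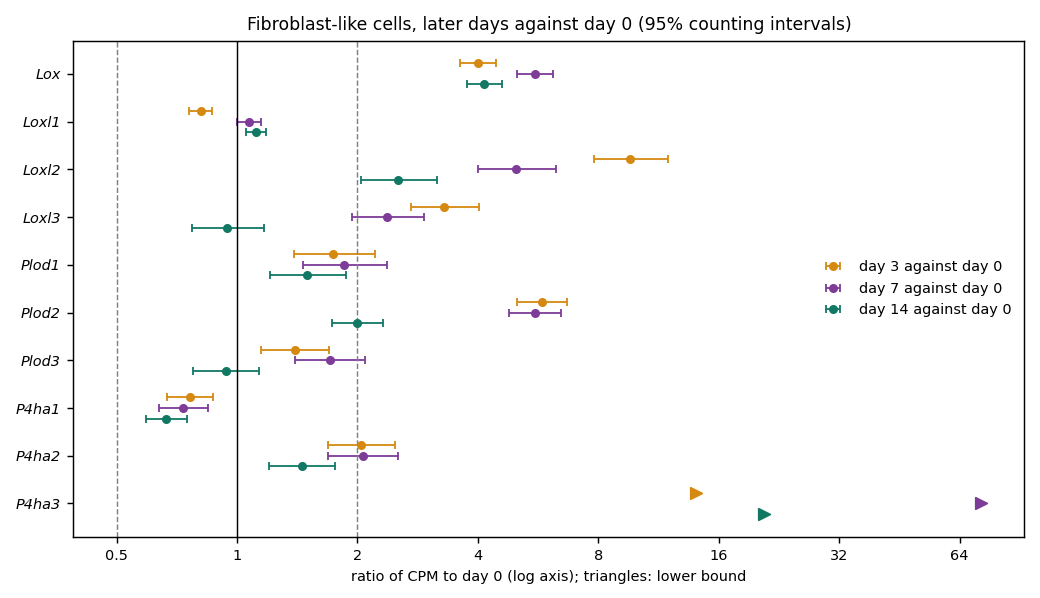
Ratio of the CPM of each enzyme on days 3, 7 and 14 to day 0 in fibroblast-like cells (x axis, log scale), with 95% counting intervals; triangles are lower bounds for P4ha3, which had no UMI on day 0, and dashed lines mark 0.5 and 2. Lox, Loxl2, Loxl3, Plod2, P4ha2 and P4ha3 lie past 2 on days 3 and 7, and P4ha1 lies left of 1 on all 3 days.

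Other properties of the fibroblast-like cells moved with the day. Their median UMI count was 8126 on day 0 and 38613.5, 28227 and 18722.5 on days 3, 7 and 14. A cluster led by Rbp4 and Fmo2 held 207, 55, 42 and 220 of the fibroblast-like cells of days 0, 3, 7 and 14, and one led by C1qtnf3 and Angptl1 held 26, 1, 47 and 269. A cluster led by the acute-phase gene Saa3 and Prg4 held 43 cells of day 3 with 66.3% of the UMIs and 21 cells of day 7 with 31.0%, and none of days 0 and 14. The 14 monocyte/macrophage markers summed to 40.5, 448, 325 and 191 CPM in fibroblast-like cells of days 0, 3, 7 and 14, with 6, 13, 13 and 12 of them detected and Chil3 at 0 on every day. The part of depth, cluster make-up and these markers in the differences between days was not tested, except as follows. Without the deepest sub-cluster of non-immune cells (N6, with a median of 54674 UMIs), which gave 67.9% and 37.7% of the fibroblast-like UMIs of days 3 and 7, 5 enzymes were at least 2 times higher on each of these days. P4ha2 left the count, at 0.76 and 0.65 on the log2 scale, Loxl1 on day 3 turned from -0.30 to 0.15, and the bound for P4ha3 on day 7 went from 6.18 to 5.30.

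Clustering the non-immune cells (endothelial-like, fibroblast-like and smooth muscle-like) again, without the enzymes among the genes used, gave 7 sub-clusters. N0, led by AI507597 and Lamc3, was the only fibroblast-like sub-cluster with at least 20 cells on every day (128, 53, 34 and 135 cells on days 0, 3, 7 and 14), so that days could be compared within it. Lox was at 239, 698, 768 and 645 CPM in N0, Loxl2 at 27.2, 304, 125 and 78.2, and Plod2 at 110, 466, 333 and 218. Each of the 3 was again lowest on day 0. Loxl2 was 11.2 times its day 0 level on day 3 (8.14 to 15.7), Plod2 4.24 times (3.58 to 5.06) and Lox 2.93 times (2.59 to 3.31). With Loxl3 at 3.16 times (2.47 to 4.07), 4 members were at least 2 times higher on day 3 (6.29% of all genes tested in N0). On day 7 these were Lox, Loxl2 and Plod2 (3 members, 4.72% of all genes), and on day 14 Lox, Loxl2 and P4ha3 (3 members, 5.44%). P4ha3 had too few UMIs to be compared on days 3 and 7, which left 9 members on these days and 10 on day 14. None of them was at or under 0.5 times in N0 on days 3, 7 and 14 (11.1%, 7.66% and 3.9% of all genes). Loxl1 in N0 was at 620, 716, 692 and 604 CPM and P4ha1 at 182, 126, 102 and 122.

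P4ha3 in N0 was at 0, 14.4, 10.2 and 7.74 CPM, with its day 0 again taken as 3 UMIs for the count above. On day 7 it reached 82.8 CPM in N6, led by Saa3 and Lcn2, and 70.3 CPM in N4, led by C1qtnf3 and Cilp. In N6 it was 5.29 times higher on day 7 than on day 3 (4.09 to 6.89), the only member to pass 2 there (4.56% of all genes), and none was at or under 0.5 times (3.44%). In N5, the smooth muscle-like sub-cluster led by Myh11 and Itga8, it was at 2.94, 1.69 and 0.805 CPM on days 3, 7 and 14, from 4, 1 and 1 UMIs.

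N3, led by Igfbp5 and Sema3c, was low in Lox and high in Loxl1. Lox was at 9.50 CPM in its 21 cells of day 0, from 4 UMIs, and at 150.4 CPM in its 46 cells of day 14, under the level of N0 on both days. Loxl1 was at 820 and 967 CPM in N3, above N0 on both days, and Loxl2 was at 268 CPM on day 14, above the other fibroblast-like sub-clusters of that day. N4 had the highest Lox of the sub-clusters on both days on which it held at least 20 cells, at 1118 CPM in 35 cells of day 7 and 959 in 238 cells of day 14. Plod2 in N4 was at 602 CPM on day 7 and 188 on day 14, a ratio of 0.313 (0.280 to 0.350), and Loxl3 at 0.356 (0.287 to 0.443), the 2 members at or under 0.5 times there (5.62% of all genes), with none at least 2 times higher (9.08%).

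**Figure D4:**
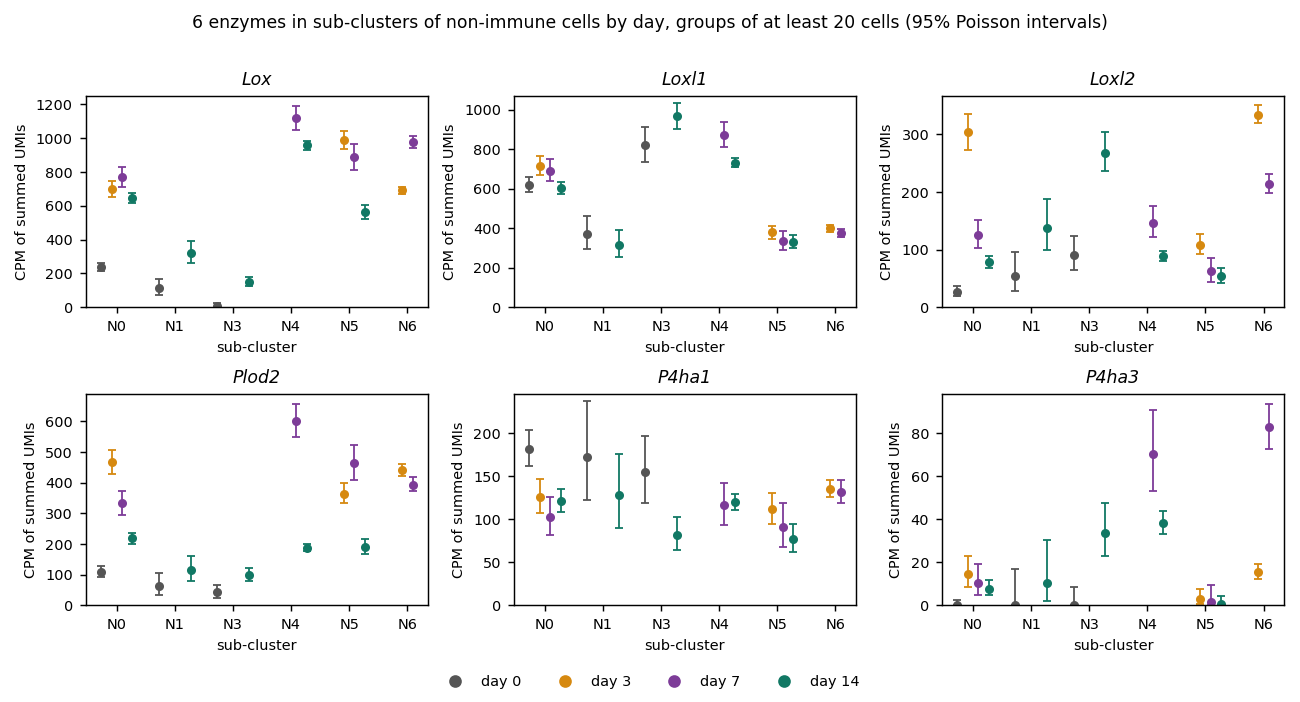
CPM of 6 enzymes (y axis) in sub-clusters of non-immune cells (x axis) by day (colour), for groups of at least 20 cells, with 95% Poisson intervals. In N0, which is present on all 4 days, Lox, Loxl2 and Plod2 are lowest on day 0, and P4ha3 is highest on day 7 in N4 and N6, at 70.3 and 82.8 CPM.

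In smooth muscle-like cells, day 0 rested on 11 cells and 98227 UMIs and is given as values. Lox was there at 173 CPM (101 to 277), Loxl1 at 183 (109 to 290) and Plod2 at 193 (117 to 302). P4ha3 had no UMI, which allows up to 30.5 CPM, and the other 6 enzymes had 1 to 6 UMIs each. Day 3 therefore served as the reference.

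On days 3, 7 and 14, Lox was at 772, 886 and 563 CPM in smooth muscle-like cells, Loxl1 at 374, 324 and 346, and Plod2 at 313, 320 and 190. Loxl2 was at 168, 142 and 59.1 CPM and Loxl3 at 111, 80.3 and 53.9. Each of these 5 had a lower level on day 14 than on day 3, with the interval for Loxl1 spanning 1. Over the processing settings tried, the log2 ratio of Loxl1 ran from -0.21 to 0.55, so its direction was not settled. Loxl2 was at 0.351 (0.274 to 0.445), Loxl3 at 0.486 (0.373 to 0.626), Plod2 at 0.608 (0.528 to 0.697), Lox at 0.729 (0.672 to 0.790) and Loxl1 at 0.925 (0.831 to 1.03) times the day 3 level.

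The remaining enzymes were at 51.9, 46.4 and 41.1 CPM (Plod1), 71.3, 74.0 and 44.9 (Plod3), 125, 115 and 80.0 (P4ha1), 70.4, 70.7 and 50.9 (P4ha2) and 9.01, 20.1 and 3.74 (P4ha3). Loxl2, Loxl3 and P4ha3 were at or under 0.5 times the day 3 level on day 14 (11.8% of all genes; none was at least 2 times higher, against 7.33%), P4ha3 from 5 UMIs with an interval of 0.127 to 1.07. This count of 3 became 0 at a Leiden resolution of 1.5 and 1 with no doublet removal. After thinning to 1000 UMIs none of these 3 genes had enough UMIs to be compared. P4ha3 was the one member at least 2 times higher on day 7 than on day 3, at 2.23 (1.40 to 3.58; 4.29% of all genes), and none was at or under 0.5 times (3.16%). The 10 fibroblast markers summed to 2277, 3934 and 3044 CPM in smooth muscle-like cells of days 3, 7 and 14, with 10, 9 and 10 of them detected, and their part in the P4ha3 ratio was not tested. Without sub-cluster N6, which gave 60.8%, 71.7% and 5.67% of the smooth muscle-like UMIs of days 3, 7 and 14, neither count held a member, P4ha3 had too few UMIs to be compared, and Loxl2 and Loxl3 on day 14 were at -0.90 and -0.39 on the log2 scale. The 10 smooth muscle markers summed to 16807.4, 11406.2 and 38454.3 CPM on days 3, 7 and 14, and the part of this shift in the levels of the enzymes was not tested. Within N5, where N6 has no part, Loxl2 was at 0.497 times its day 3 level on day 14 (0.366 to 0.667), the only member at or under 0.5 times (3.84% of all genes), with none at least 2 times higher (4.47%). From day 3 to day 7 none of the 9 members of N5 with enough UMIs passed either limit (5.81% and 5.15% of all genes), and P4ha3 had too few to be compared on both later days.

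Set beside fibroblast-like cells of the same day, smooth muscle-like cells had less of most enzymes. P4ha3 was at 0.477 (0.308 to 0.726), 0.205 (0.148 to 0.279) and 0.133 (0.0429 to 0.315) times the fibroblast-like level on days 3, 7 and 14. Loxl1 was at 0.729 (0.681 to 0.781), 0.477 (0.439 to 0.518) and 0.491 (0.446 to 0.540) times. Loxl2 on day 3, at 0.419 (0.381 to 0.460), was the remaining value at or under 0.5 times, which made 2 of 10 members on each day, where 9.57%, 9.21% and 16.1% of all genes were that low. Lox was nearly equal on day 3, at 1.05 (1.00 to 1.11), and lower on days 7 and 14, at 0.872 (0.825 to 0.922) and 0.742 (0.687 to 0.80). On day 14 Plod2 and Loxl3 did not differ beyond their intervals, at 1.03 (0.896 to 1.17) and 1.06 (0.812 to 1.36). No member was at least 2 times higher in smooth muscle-like cells (14.7%, 11.9% and 11.2% of all genes). Both classes drew on sub-cluster N6, which gave 67.9% and 37.7% of the fibroblast-like UMIs of days 3 and 7. It gave 60.8% and 71.7% of the smooth muscle-like UMIs of these days. On day 14 its shares were 0.326% and 5.67%. The part of N6 in these ratios and in their change between days was not tested.

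A cluster led by Eln and Rgs5 matched fibroblasts best, with 8 of 10 fibroblast markers beside 3 of 10 smooth muscle and 3 of 4 pericyte markers, but stayed without a name because its 10 leading genes held more markers of another class than of fibroblasts. It had 1, 54 and 3 cells on days 3, 7 and 14 and none on day 0. Its day 7 cells had the highest Lox of all groups of at least 20 cells, at 1824 CPM (1759 to 1890), and the highest Plod2, at 744 (703 to 787). Loxl3, at 205 (184 to 228), overlapped fibroblast-like cells of day 3. Lox was 1.80 times the level of fibroblast-like cells of that day (1.71 to 1.89), Loxl3 1.60 times (1.38 to 1.86) and Plod2 1.45 times (1.34 to 1.56), so that none of the 10 reached 2 times (2.6% of all genes did). P4ha3, at 47.0 CPM, was at 0.482 times (0.370 to 0.620; 7.04% of all genes were at or under 0.5 times). Against smooth muscle-like cells of day 7, 5 members were at least 2 times higher (5.99% of all genes), namely Lox, Loxl1, Loxl3, Plod2 and P4ha3, and none was at or under 0.5 times (14.3%). Counting the cluster as fibroblast-like left 6, 5 and 4 members past 2 times on days 3, 7 and 14.

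Endothelial-like cells were few and shallow, with 39 cells on day 3 and 58 on day 7 and median UMI counts of 1136 and 1662. Their lysyl oxidase transcripts were sparse. Lox was at 9.99 CPM on day 3 from 2 UMIs (1.21 to 36.1) and 125 on day 7 from 96 UMIs (101 to 152). Loxl1 was at 9.99 and 7.80 CPM. Of the 7 members with enough UMIs, Lox, P4ha1 and P4ha2 were at least 2 times higher on day 7 than on day 3 (15.9% of all genes), Lox at 12.5 times (3.37 to 105), and none was at or under 0.5 times (8.15%). Their day 3 UMIs came from only 2.56%, 5.13% and 7.69% of the 39 cells, so very few cells set the reference. For P4ha1 the mean of each cell's CPM on day 3 was 2.14, beside 29.95 CPM from summed UMIs. The intervals leave out such differences between cells. The day 3 level of Lox was near that of T cell-like cells of that day, 5.19 CPM. The 10 fibroblast markers summed to 584 CPM in endothelial-like cells of day 3 (4 of 10 detected, with Pdgfra and Lum at 0) and 1252 on day 7 (10 of 10), and the 6 cell cycle markers to 2950 and 776, and their part in these ratios was not tested. On day 7 Lox and Loxl1 were at 0.123 (0.0992 to 0.150) and 0.0115 (0.00421 to 0.0251) times the fibroblast-like level, while P4ha2, at 100 CPM, was at 0.805 (0.622 to 1.03), Plod3, at 85.8, at 0.783 (0.592 to 1.02) and Plod1, at 66.3, at 0.812 (0.589 to 1.10). In all, 6 of the 10 members were at or under 0.5 times the fibroblast-like level on day 7 (15.6% of all genes), and none was at least 2 times higher (17.6%).

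Lox transcripts in T cell-like cells were taken as a background level, which was not tested. In T cell-like cells Lox was at 0, 5.19, 25.2 and 10.9 CPM on days 0, 3, 7 and 14, Loxl1 at 0, 2.60, 10.6 and 5.46 and P4ha3 at 0, 0, 1.32 and 0. On day 7 Lox was at 33.0 CPM in NK cell-like cells (22.6 to 46.6) and at 64.6 CPM in neutrophil-like cells, from 24 UMIs (41.4 to 96.2), so that this background differed between immune-like classes and reached above the T cell-like level. In monocyte/macrophage-like cells Lox was at 5.69, 18.8 and 9.34 CPM on days 3, 7 and 14, at or under the T cell-like level of days 7 and 14, and is read as background. Plod1 and Plod3 in monocyte/macrophage-like cells lay above the T cell-like level. Plod3 was at 85.5 CPM in monocyte/macrophage-like cells on day 3 (78.1 to 93.3), 69.2 on day 7 (63.9 to 74.8) and 39.4 on day 14 (30.0 to 50.8), where T cell-like cells had 10.4, 8.39 and 9.10. Plod1 was at 62.7 (56.4 to 69.5), 40.5 (36.5 to 44.9) and 33.4 CPM (24.8 to 44.0), where T cell-like cells had 0, 5.74 and 9.10. P4ha1 was at 66.7 (60.2 to 73.7), 53.3 (48.6 to 58.2) and 42.0 CPM (32.3 to 53.8), beside 28.6, 26.9 and 16.4 in T cell-like cells. Its intervals overlapped those of NK cell-like cells, at 47.1, 40.2 and 21.4, and of neutrophil-like cells of day 7, at 51.2. They lay above those of dendritic-like cells on days 3 and 7, at 33.3 (25.9 to 42.2) and 36.7 (31.2 to 42.8). The same held for neutrophil-like cells of day 3, at 35.45 (22.7 to 52.7). On day 3 the Plod3 level of monocyte/macrophage-like cells was close to that of fibroblast-like cells, 89.5 CPM, and the intervals overlapped. Plod3 and Loxl3 were at or under 0.5 times their day 3 level on day 14 (9.14% of all genes). Plod3 was at 0.461 (0.346 to 0.604) and Loxl3 at 0.430, from 4 UMIs, with an interval of 0.111 to 1.20 that spanned 1. At background level, Lox, Loxl1 and Plod2 were at least 2 times higher on day 7 than on day 3 (5.79% of all genes; none lower, against 4.31%), and Loxl1 on day 14 (6.28%). Loxl3 was at 7.73 CPM in dendritic-like cells (4.42 to 12.6) and at 6.20 in monocyte/macrophage-like cells (4.34 to 8.59) of day 3. Loxl3 had no UMI in T cell-like cells (0 to 9.58) or NK cell-like cells (0 to 13.4) of that day, but these intervals overlapped both values. Whether the Loxl3 of dendritic-like and monocyte/macrophage-like cells was expression or background was not tested. P4ha2 stayed at 3.08 to 3.62 CPM in monocyte/macrophage-like cells.

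The share of cells with a transcript was lowest on day 0 for Lox, Loxl2 and Plod2, as the level was. Cells were thinned to 1000 UMIs, which left out 25, 1, 4 and 13 fibroblast-like cells of days 0, 3, 7 and 14. Lox was then seen in 15.4% of fibroblast-like cells on day 0 (10.8 to 21.0), 45.5% on day 3 (35.6 to 55.8), 45.8% on day 7 (36.1 to 55.7) and 39.6% on day 14 (35.2 to 44.2), and in 0%, 0%, 3.86% and 2.17% of T cell-like cells. Plod2 was seen in 7.21%, 38.6%, 34.6% and 15.7% of fibroblast-like cells and Loxl2 in 1.92%, 25.7%, 12.1% and 10.9%. P4ha1 was seen in 22.6% (17.1 to 28.9), 15.8% (9.34 to 24.5), 13.1% (7.34 to 21.0) and 10.5% (7.88 to 13.6), highest on day 0 as for its level. Without thinning, 50.6%, 92.2%, 88.3% and 82.5% of fibroblast-like cells had a Lox UMI. P4ha3 was seen in 0 of the 233 cells of day 0, and in 32.4%, 55.0% and 28.2% of cells of days 3, 7 and 14 without thinning. The shares for Plod1 and Plod3 overlapped between all days once thinned.

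The rest of the collagen assembly line was read from a list of 26 genes. In fibroblast-like cells 8 of the 22 that could be compared were at least 2 times their day 0 level on day 3, 6 of 21 on day 7 and 2 of 23 on day 14 (9.14%, 9.82% and 9.09% of all genes). At or under 0.5 times were 2, 1 and 1 (10.7%, 8.15% and 4.58% of all genes). Both counts of day 14 were near the share of all genes. The 8 of day 3 became 4 without N6, 5 with at least 50 UMIs asked and 3 after thinning to 1000 UMIs, where fewer genes could be compared, the 6 of day 7 became 2 after thinning, and the 2 of day 14 became 0 with 50 UMIs asked. The list's median log2 ratio was 0.50, 0.23 and 0.22. P4hb, the protein disulfide isomerase that pairs with the alpha subunits, was at 343, 772, 607 and 360 CPM on days 0, 3, 7 and 14, or 2.25 times its day 0 level on day 3 (2.08 to 2.44). The collagen chaperones Fkbp10 and Fkbp14 were 4.29 (3.60 to 5.15) and 2.20 (1.73 to 2.83) times as high on day 3 and 3.76 (3.14 to 4.53) and 2.07 (1.61 to 2.68) times on day 7. Fkbp10 is known to assist Plod2 at the telopeptides. P3h1, the prolyl 3-hydroxylase, was 2.08 (1.65 to 2.65) and 2.66 (2.11 to 3.38) times as high, and Colgalt1, which adds galactose to hydroxylysine, 2.67 (2.28 to 3.14) and 2.39 (2.03 to 2.83) times. Adamts14 was 4.31 times as high on day 3 (1.53 to 16.8) and 4.83 times on day 7 (1.68 to 19.0), from 4 UMIs on day 0, and Adamts3 5.20 times on day 3 (1.61 to 26.7), from 3.

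Other genes of the list moved otherwise. Loxl4, the remaining lysyl oxidase, was at 3.15, 10.2, 5.46 and 4.18 CPM on days 0, 3, 7 and 14, or 3.23 times as high on day 3 (1.44 to 8.52). Bmp1, which cuts procollagen and activates Lox, passed 2 times on day 7 at 2.58 (2.30 to 2.90). Pcolce2, an enhancer of that cut, was at 1182, 147, 130 and 297 CPM, which put it at 0.124 times on day 3 (0.114 to 0.136), 0.110 times on day 7 (0.0984 to 0.122) and 0.251 times on day 14 (0.238 to 0.265). Fbln5, an elastic fibre protein, was at 0.237 times on day 3 (0.223 to 0.253), 0.617 on day 7 and 0.685 on day 14. P3h3 was at 0.537 times on day 3 (0.473 to 0.610), Ppib at 0.792 on day 7 and 0.776 on day 14, and Colgalt2 at 6.79 times on day 14 (1.12 to 278), from 1 UMI on day 0.

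The substrates were also higher after injury in fibroblast-like cells. Of 6 substrate genes, 4, 6 and 5 were at least 2 times their day 0 level on days 3, 7 and 14 (9.14%, 9.82% and 9.09% of all genes). Col3a1 was at 5.55 (5.43 to 5.68), 8.47 (8.27 to 8.66) and 7.55 (7.38 to 7.72) times and Col1a1 at 2.90 (2.84 to 2.96), 4.20 (4.12 to 4.29) and 4.14 (4.06 to 4.22) times. Col5a2 was at 4.63, 6.66 and 4.04 times, Col5a1 at 3.54, 5.28 and 3.10 times and Col1a2 at 1.83, 2.76 and 3.05 times. Eln was at 1.26 (1.22 to 1.31), 3.96 (3.83 to 4.09) and 1.98 (1.91 to 2.04) times. Col1a1 and Col3a1 were thus still near their peak on day 14, whereas Loxl2, Loxl3 and Plod2 were not. As sets the 2 lists differed less. From day 7 to day 14 the median log2 ratio was -0.44 over the 6 substrates, with 5 intervals below 1. Over the 10 enzymes it was -0.69, with 8 intervals below 1.

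A list of 12 hypoxia response genes was read beside the hydroxylases. In fibroblast-like cells 3 of the 9 that could be compared were at least 2 times higher on day 3 (Slc2a1, Pdk1 and Pgk1), 1 on day 7 (Slc2a1) and none on day 14, where 9.14%, 9.82% and 9.09% of all genes were. Bnip3 and Adm were at or under 0.5 times on days 3 and 7 and no gene of the list on day 14 (10.7%, 8.15% and 4.58% of all genes). The median log2 ratio was 0.20, -0.08 and -0.08. Pgk1, a glycolytic enzyme, was at 2.27 times on day 3 (1.92 to 2.69), and Adm, the adrenomedullin gene, at 0.486 (0.388 to 0.610), 0.233 (0.168 to 0.318) and 1.55 (1.32 to 1.84) times on days 3, 7 and 14. Slc2a1, a glucose transporter, was at 2.06 times on day 3 (1.04 to 4.43) and 2.02 times on day 7 (0.986 to 4.44), from 11 UMIs on day 0. Ndrg1 was at 0.708, 0.633 and 0.637 times, and Vegfa at 1.60 and Pdk1 at 1.57 times on day 14.

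Patterns were last compared across the 23 groups of a named class and day, the Eln/Rgs5 cluster left out, with at least 20 cells and 100000 UMIs, as a description, since groups of 1 day share a library and classes of 1 lineage lie together. By Pearson's r of log2(CPM + 10), the genes most like Lox were Fkbp14 (0.97), Fbn1 (0.96) and Fat1 (0.96), and those most like Loxl1 were Col6a2 (0.99), Fzd2 (0.99) and Mmp23 (0.99). For Plod2 they were Tmem263 (0.97), the member Loxl2 (0.95) and Col5a1 (0.94), and for P4ha3 Lrrc15 (0.95), Bnc2 (0.93) and B830012L14Rik (0.93). For Loxl2 they were Kdelr3 (0.96), Ndrg4 (0.96) and Nectin3 (0.96), for Loxl3 Ptprf (0.97), Tnfrsf11b (0.96) and Ak1 (0.96), and for P4ha2 Tcaf1 (0.98), Plpp1 (0.98) and Cdc42ep5 (0.98). Plod1 and Plod3 lay close to each other (0.93), each with Mcfd2 (0.93) as its nearest gene and with Hsbp1 (0.91) and Adam9 (0.91) next, and P4ha1 lay nearest Naglu (0.91), Plpp7 (0.91) and Pon3 (0.91). Among members the lowest value was that of Plod2 with Plod3, 0.47. The 4 lysyl oxidase genes had values of 0.90 to 0.95 with one another.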

How the data were processed

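Raw UMI counts of 4 libraries, 1 per time point, were analysed. Per the labels, the authors digested the arteries with collagenases, hyaluronidase and DNase, removed dead cells and made 3′ libraries, and the deposited count of a gene in a cell barcode is not normalized. Cell Ranger 3.0.2 is written in the file headers, and the methods give a different release. The stated genome build is not a mouse build, so coordinates are given for the promoter sequences alone, in the build of the RefSeq table. Doublet removal by the authors is not given in the sources used here. The 10 genes, the gene lists and the marker lists were chosen with earlier results of these data known.

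Barcodes needed at least 200 genes and no more than 20% mitochondrial UMIs, which 453 of 6161 failed. Scrublet's own threshold marked 17 barcodes, too few to rely on, so barcodes with the highest scores were removed at a rate of 0.8% per 1000 barcodes of a library (106). A barcode found in a second library with under 10% of the UMIs of its partner was removed (214). Cells were clustered together with scanpy 1.11.5 (scaling to 10000, 2000 variable genes without the enzymes and the 3 lists, mitochondrial share regressed out, 30 components, 15 neighbours, Leiden resolution 1 with igraph 0.11.9), and the 23 clusters became 29 after large unnamed ones were split. A marker counted at 50 CPM or more, in at least 10% of the cells and at 3 times the lower quartile of clusters (20 CPM added), and a name ("-like") needed 3 such markers. In all 698 cells (12.9%) stayed unnamed, and 168 cycling cells took the class of their neighbours. Non-immune cells were clustered again at resolution 0.5. These names were rebuilt here, and values that differ from those of the study can reflect that.

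CPM were computed from UMIs summed over a class and day, with exact Poisson intervals. Ratios of CPM carry exact conditional (Clopper-Pearson) intervals, and shares of cells exact binomial ones. A gene was compared with at least 20 UMIs over both sums and called at a ratio of 2 or more or 0.5 or less, with 0 UMIs taken as 3. The script was tested on simulated data. All enzymes were named, and, of each list, the 3 highest and 3 lowest ratios and any gene whose call differed between days. Promoter letters were searched in the RefSeq table of GRCm38.p6. Alternatives were the mean of each cell's CPM, thinning to 1000 UMIs, a total without the 50 most abundant genes, other resolutions, each library clustered on its own, a stricter cell filter, no doublet removal, omission of N6, and 50 UMIs in place of 20. Keeping the copies, adding the Eln/Rgs5 cluster and leaving out shallow cells were chosen after seeing the data.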

Additional observations from a re-analysis of the deposited data

Results flagged for a closer look

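Loxl1 moved in opposite directions in fibroblast-like and smooth muscle-like cells between days 3 and 7. Its log2 ratio of day 7 to day 3 was 0.40 in fibroblast-like cells and -0.21 in smooth muscle-like cells, with 1 library per day, and the difference was not tested. Under the mean of each cell's CPM the smooth muscle-like value was 0.35, and when cells were thinned to 1000 UMIs it was 0.28, so the opposite direction did not hold under these settings. The fibroblast-like rise was not seen within sub-cluster N0, where Loxl1 was no higher on day 7 than on day 3.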

How the results depend on the processing

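Of 580 log2 ratios of single enzymes recomputed under the alternatives, 549 kept their direction, 474 moved by less than their counting interval and none of the called ones changed direction. The share that moved by less than that interval was lowest under thinning (6 of the 32 that could be compared), the mean of each cell's CPM (27 of 50) and the omission of N6 (31 of 48). The counts of enzymes past 2 times in fibroblast-like cells stayed between 4 and 6 on day 3 and between 3 and 6 on day 7, and were 3 or 4 on day 14. Thinning to 1000 UMIs moved the most counts, and gave 3 enzymes higher on day 7 (6 before), 1 lower on day 14 (0 before; P4ha1, at -1.17 on the log2 scale), 3 and 2 genes of the collagen maturation list higher on days 3 and 7 (8 and 6 before), and, in smooth muscle-like cells, 0 higher on day 7 and 1 lower on day 14 (Plod2, not called before, at -1.16 on the log2 scale). Fewer genes reach 20 UMIs after thinning, and in smooth muscle-like cells Lox, Loxl1 and Plod2 alone could be compared, so the earlier calls there were not retested. In smooth muscle-like cells the count of enzymes lower on day 14 than on day 3 (3 before) was 0 at Leiden resolution 1.5, 1 with no doublet removal and 0 without sub-cluster N6, where the count of enzymes higher on day 7 was also 0; the cause was not tested. The maturation list had 4 genes higher on day 3 without N6, 5 with at least 50 UMIs asked, and 0 on day 14 with 50 UMIs. The median share of fibroblast-like cells with a UMI, over the 10 enzymes, was 7.21%, 17.8%, 11.7% and 9.54% on days 0, 3, 7 and 14 and became 35.8%, 81.9%, 80.2% and 63.1% without thinning. No paired analysis was possible because each day had 1 library.

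With 1 library per day there was no measure of the spread between animals or libraries, and the intervals leave it out. Day 0 held 281 cells, among them 11 smooth muscle-like and 6 endothelial-like cells, which limits any comparison of these classes with day 0. Lox ranged from 0 to 25.2 CPM between days in T cell-like cells and was at 64.6 CPM in neutrophil-like cells of day 7, and Lox values of other classes near these levels are not read as expression.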
